A study of Mus musculus with 10 samples.

Results

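Chromatin bound by the transcription factor XBP-1 was mapped in mouse liver by chromatin immunoprecipitation and sequencing, and 672 regions had a peak in both fasted libraries and in neither fed library (called Fasted-only here). They were chosen by the peak lists themselves: peaks of the 4 Fed and Fasted libraries were merged wherever they overlapped by at least 1 bp, and a region was kept if both Fasted lists and neither Fed list had a peak there. The 672 regions made up 0.599% of the 112251 merged regions, while the reverse rule, a peak in both Fed lists and neither Fasted list, was met by 2588 Fed-only regions (2.31%). Because those 4 lists selected the regions, everything measured in them is a description and carries no test. The other 15607 regions with a peak in both Fasted lists had a Fed peak too, 5246 of them in 1 Fed library and 10361 in both. The number depends on each list, and was 5661 if Fed replicate 2 was left out, while dropping Fasted replicate 1 gave 1782 and dropping Fasted replicate 2 gave 12089. With the 19237 top peaks of each list it was 1817, against 910 Fed-only regions.

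Fed and Fasted livers came from wild-type mice, and the second experiment set wild-type control livers (WT) against livers with a liver-specific knockout of Ern1 (Ern1-LKO). All mice were of strain C57BL/6J, each group had 2 libraries made with an antibody to Xbp-1s, and there were 2 input libraries of wild-type liver DNA. The labels give neither the length of the fast, nor the feeding state of the WT and Ern1-LKO mice, nor the promoter that drove the deletion. They also give no age or sex, and do not say which libraries came from separate animals, so a p-value over libraries measures only the spread between them, which may be technical.

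XBP-1 is a basic leucine zipper factor of the unfolded protein response. The endoplasmic reticulum (ER) sensor IRE1, encoded by Ern1, cuts an intron out of Xbp1 mRNA, and the spliced message is translated into the active factor, Xbp-1s, which is best known for driving genes of ER folding, degradation and secretion. In liver XBP-1 is also known for its part in lipid metabolism, and fasting moves the liver from storing to burning fat and making glucose.

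Few of the regions touched a promoter, and those that did are printed first so that the overlap can be seen. A promoter here is the window from 250 bases before to 50 bases after a start site, as given by RefSeq for GRCm38.p6, the assembly of mm10. Of the 654 regions on chromosomes with start sites in that table, 4 (0.612%) overlapped such a window, against 11.2% of all merged regions, 30.1% of the other regions in both Fasted lists and 10.2% of the Fed-only regions. Each sequence reads 5′ to 3′ in the direction of its gene, and capitals mark the bases inside the Fasted-only region.
Defb46 (chr8:19239666-19239965, plus strand): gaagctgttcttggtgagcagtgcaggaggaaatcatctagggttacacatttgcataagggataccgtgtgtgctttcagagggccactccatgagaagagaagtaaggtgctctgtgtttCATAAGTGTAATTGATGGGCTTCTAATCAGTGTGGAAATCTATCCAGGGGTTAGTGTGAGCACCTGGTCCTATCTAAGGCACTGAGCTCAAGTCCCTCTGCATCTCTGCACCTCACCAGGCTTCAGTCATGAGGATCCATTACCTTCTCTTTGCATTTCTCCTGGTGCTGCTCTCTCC
Ppp4r4 (chr12:103532315-103532614, plus strand): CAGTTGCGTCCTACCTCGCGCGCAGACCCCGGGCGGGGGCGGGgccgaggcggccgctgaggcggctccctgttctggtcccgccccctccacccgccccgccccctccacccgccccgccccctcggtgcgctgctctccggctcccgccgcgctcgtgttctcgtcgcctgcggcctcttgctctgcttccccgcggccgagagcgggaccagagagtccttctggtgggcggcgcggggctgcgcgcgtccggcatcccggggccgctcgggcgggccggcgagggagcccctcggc
Gm46155 (chr1:121147938-121148237, minus strand): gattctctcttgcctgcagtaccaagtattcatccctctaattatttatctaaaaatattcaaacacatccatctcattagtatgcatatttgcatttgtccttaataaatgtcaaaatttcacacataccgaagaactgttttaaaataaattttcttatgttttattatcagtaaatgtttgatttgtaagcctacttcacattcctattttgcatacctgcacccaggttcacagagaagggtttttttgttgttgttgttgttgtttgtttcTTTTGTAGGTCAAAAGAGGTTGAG
Gm36008 (chr3:51510738-51511037, plus strand): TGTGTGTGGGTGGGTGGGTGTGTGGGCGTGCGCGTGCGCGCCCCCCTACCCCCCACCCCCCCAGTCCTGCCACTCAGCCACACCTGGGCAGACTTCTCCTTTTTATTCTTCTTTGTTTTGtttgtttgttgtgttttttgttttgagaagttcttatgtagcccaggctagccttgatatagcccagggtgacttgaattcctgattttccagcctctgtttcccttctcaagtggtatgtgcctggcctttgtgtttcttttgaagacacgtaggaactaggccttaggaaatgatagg

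Defb46 encodes a beta-defensin, a small antimicrobial peptide, and its window had 178 bases inside the region, with folds of 8.42 and 7.87 in Fasted replicates 1 and 2. The fold is the authors' ratio of the peak's pileup to the local background. Ppp4r4, which encodes a regulatory subunit of protein phosphatase 4, had 43 bases inside, all at the upstream end, with folds of 7.37 and 4.88. Both long noncoding RNA genes had short overlaps, of 24 bases at the downstream end of the Gm46155 window (folds of 7.37 and 5.90) and of 120 bases at the upstream end of the Gm36008 window (5.39 and 5.01). Exact letters of known elements were then searched on both strands of the 4 windows. The unfolded protein response element TGACGTGG was in 0 of 4 (0.676% of all 32851 windows), as were the cyclic AMP element TGACGTCA (1.79%), the E-box CACGTG (7.15%), the forkhead letters TGTTTAC (3.65%) and TATTTAC (3.04%), the CCAAT box (37.4%) and the ER stress response element ERSE (0.119%). The core ACGT, which is contained in the first 3 of these, was in 1 window, that of Gm36008, outside the part in capitals (30.9% of all windows). These letters describe the 4 windows alone, and the sequence of the other regions was not used here.

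In the Fasted lists the regions were of middling height. Widths ran from 201 to 718 bp with a median of 286.5 bp, against 292 bp for all merged regions, 326 bp for those in both Fasted lists and 1 Fed list and 422 bp for all others in both Fasted lists. Folds ran from 2.32 to 16.01 in Fasted replicate 1 (median 6.84) and from 2.12 to 18.2 in Fasted replicate 2 (median 7.04). The other regions in both Fasted lists had medians of 10.6 and 8.004, and the whole lists had medians of 6.69 and 7.48. By the authors' p-value the median region stood at percentile 45.4 of the Fasted replicate 1 list and 35.3 of the Fasted replicate 2 list. The best ranks were 5345 and 314, and 0 regions were among the 1000 top peaks of both lists. Neither library gave the higher fold throughout, since 357 of the 672 regions were higher in replicate 2. The summits of both Fasted peaks lay a median of 24 bp apart and within 50 bp at 525 regions. These livers were profiled in bulk, so binding in fewer cells and weaker binding per cell cannot be told apart.

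**Figure D1:**
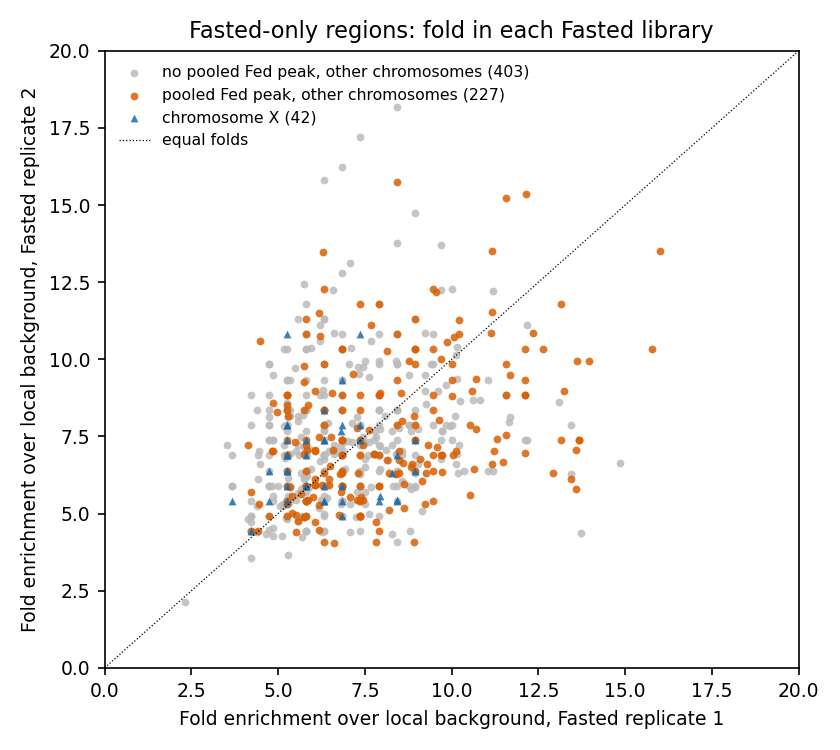
Fold enrichment over local background of each of the 672 Fasted-only regions in Fasted replicate 1 (x axis) and replicate 2 (y axis), 1 point per region. Points lie on both sides of the line of equal folds, 18 regions reach 10 in both libraries, and the 42 regions on chromosome X (triangles) lie within 3.68 to 8.94 on x and 4.42 to 10.8 on y.

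A region could fall outside the rule by a few bases. The region just inside lay near Atp5d, a subunit gene of the mitochondrial ATP synthase, at 17 bp from a Fed peak (folds of 5.05 and 5.24), and regions near Tnrc18 and Intu followed at 48 and 58 bp. The region just outside lay near Ank2, an ankyrin gene, where a Fed peak overlapped by 3 bp (6.31 and 8.36), followed by Entpd3 and Zfr2 at 54 and 68 bp of overlap. Most regions were not such edges of a Fed peak. The nearest peak of Fed replicate 1 was within 1 kb of 58 regions and within 10 kb of 336, and that of Fed replicate 2 within 1 kb of 31 and within 10 kb of 223.

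Absence from both Fed lists did not mean absence of signal when the Fed libraries were pooled by the authors. The pooled Fed list, made from 24.98M kept tags (M, 1e6), had a peak at 235 of the 672 regions (35.0%, 95% exact interval 31.4 to 38.7%), against 67.7% of all merged regions. The pooled list holds the same Fed libraries that the rule used, so these values too are a description. At those 235 regions the pooled Fed fold ran from 2.27 to 6.42 (median 4.34), while the pooled Fasted list, made from 17.9M tags, had a median fold of 9.33. The ratio of pooled Fasted to pooled Fed fold had a median of 2.15 and ran from 1.06 to 4.14, so the pooled Fasted fold was the higher at each of them. Each fold is relative to its own list's background, and 1 input library served for both. The pooled Fasted list covered 671 of the 672 regions (34.8% of all merged regions), and 437 regions had no pooled Fed peak. Of the 2588 Fed-only regions, 89 (3.44%) had a pooled Fasted peak.

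**Figure D2:**
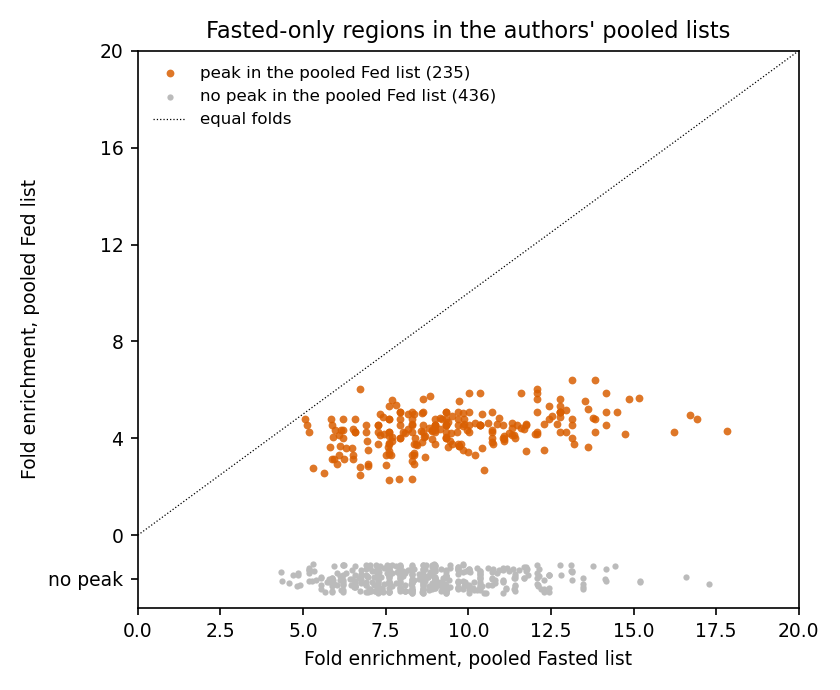
Fold enrichment of the Fasted-only regions in the authors' pooled Fasted list (x axis) and pooled Fed list (y axis), 1 point per region; the grey strip at the bottom, spread vertically for legibility, holds the regions with no pooled Fed peak. All 235 points with a pooled Fed peak lie under the line of equal folds, at pooled Fed folds of 2.27 to 6.42.

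Per the file headers, the Fed lists rested on 17.4M and 7.77M kept tags and held 82975 and 47357 peaks, and the Fasted lists on 8.38M and 9.62M tags and held 53973 and 19237 peaks. The WT and Ern1-LKO lists, called against the other input library, held 6258 and 30327 peaks (14.1M and 9.18M tags) and 698 and 30796 peaks (11.996M and 4.34M tags). A peak list measures no expression, so the labelled tissue could not be checked against expressed markers.

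The Fasted-only regions lay away from gene ends. Of the 672, 372 (55.4%, 95% exact interval 51.5 to 59.2%) lay between protein-coding genes, 277 (41.2%, 37.5 to 45.0%) inside a gene and 23 (3.42%, 2.18 to 5.09%) within 1 kb of a gene's end or start site. Among the other regions in both Fasted lists the same shares were 28.9%, 32.8% and 38.1%, and among all merged regions 32.3%, 47.7% and 19.8%. The regions in both Fasted lists and 1 Fed list had shares close to the Fasted-only ones, at 50.9%, 45.2% and 3.603%, while those in all 4 lists had 17.7%, 26.5% and 55.6%. The Fed-only regions stood at 28.6% between genes, 51.9% inside and 19.4% at gene ends. These shares were not tested, because regions are not replicates. With a window of 5 kb the share at gene ends was 17.3%, against 38.8% of all merged and 42.4% of the Fed-only regions. It was 8.74% for the regions the rule gives without Fasted replicate 2. The 437 regions with no pooled Fed peak had 58.6% between genes, 37.3% inside and 4.12% at gene ends.

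**Figure D3:**
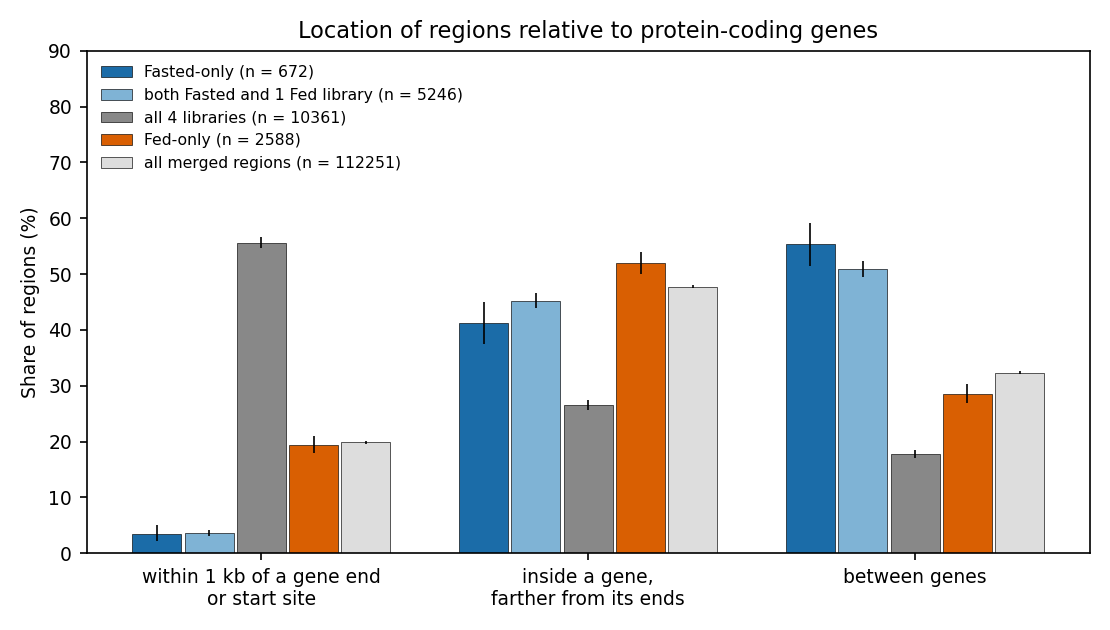
Share of regions (%) within 1 kb of a gene end or start site, inside a gene and between genes, for 5 sets of merged regions, with bars for the share and lines for the 95% exact binomial interval. The Fasted-only regions (dark blue) have 3.42% at gene ends and 55.4% between genes, against 19.4% and 28.6% for the Fed-only regions (orange).

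Distances to start sites were long. The median Fasted-only region was 47833 bp from the nearest listed start site, against 20184 bp for the other regions in both Fasted lists, 66487.5 bp for those with 1 Fed peak, 19184 bp for the Fed-only regions and 23386.5 bp for all merged regions. A start site was within 1 kb of 7 of 654 regions (1.07%, 13.2% of all merged regions) and within 5 kb of 50 (7.65%, 23.3%), and 326 (49.8%, 33.6%) lay over 50 kb away. Regions inside genes tended to sit in long ones. Their host genes had a median length of 124 kb, and 56.7% lay in genes over 100 kb, against 67.1 kb and 38.1% for all merged regions inside genes and 107 kb and 52.1% for the other regions in both Fasted lists.

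The 7 regions near a start site lay at genes of varied function. Besides Defb46 and Ppp4r4 they were at Pik3cd, a lipid kinase subunit of leukocytes (folds of 7.89 and 8.36), S100a3, a calcium-binding protein (8.27 and 7.23), Cd3e, a subunit of the T cell receptor complex (6.07 and 8.96), Celf3, an RNA-binding protein (7.499 and 6.76), and Pfkm, the muscle form of the glycolytic enzyme phosphofructokinase (6.05 and 6.12). The distances from start site to region midpoint ran from 85 bp at Defb46 to 798 bp at S100a3. Cd3e and Pfkm also had a pooled Fed peak, with folds of 3.78 and 3.88, under their pooled Fasted folds of 9.50 and 7.70.

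The strongest region lay inside Cgnl1, which encodes a protein of cell junctions, on chromosome 9 (mm10, 71643942 to 71644251), with folds of 16.01 and 13.5 and a pooled Fed fold of 4.31. The region near Gfod1 followed (chromosome 13, 43327216 to 43327541) with 12.1 and 15.4, and that inside Cdk5rap2, a centrosome gene (chromosome 4, 70257964 to 70258321), with 11.6 and 15.2. Ppp4r2, a further regulatory subunit gene of protein phosphatase 4, had a region 8589 bp upstream with 15.8 and 10.3. These 4 regions each had a pooled Fed peak, with folds of 4.28 to 4.97, and pooled Fasted folds of 16.2 to 17.8. The highest fold in Fasted replicate 2 was 18.2, at a region 30969 bp downstream of Tnfsf8, a ligand gene of the tumour necrosis factor family, and it was 8.42 in replicate 1. That region had no pooled Fed peak. Of the 25 regions with the highest mean rank in the Fasted lists, 18 had a pooled Fed peak, 12 lay inside a gene, and 0 lay at a gene end or on chromosome X. Of all merged regions 67.7% had a pooled Fed peak, 47.7% lay inside a gene, 19.8% at a gene end and 1.10% on chromosome X. The same shares of all 672 Fasted-only regions were 35.0%, 41.2%, 3.42% and 6.25%.

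The other genes nearest to these 25 regions had varied functions. Esrrg, an orphan nuclear receptor, had an internal region with folds of 9.997 and 12.3 and no pooled Fed peak (chromosome 1, 187919790 to 187920182). Kdm1b, a histone demethylase, had one with 13.6 and 9.94, and Bptf, a subunit of a nucleosome remodelling complex, one with 9.68 and 10.01. The zinc finger genes Zfp64, Zfp644 and Zbtb10 lay at some distance, with regions 204470 bp upstream, 3362 bp downstream and 94480 bp away. Their folds in replicates 1 and 2 were 13.2 and 11.8, 11.2 and 12.2, and 8.94 and 14.7. Further genes were Flt1, a receptor of vascular endothelial growth factor (11.2 and 11.5, internal), Scamp5, a membrane trafficking gene (12.4 and 10.8, internal), and Slc35b3, a Golgi transporter of the sulfate donor (8.42 and 15.7, at 493113 bp). The remaining names were Zswim6, Clec4a2, Lrmda, Lctl, Hebp1, Fxyd6, Dip2b, Ppil1, Cdh26, Cdcp1 and Sdccag8. A nearest gene is a position on the map, and whether these genes respond to XBP-1 was not measured.

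The regions were spread over many genes. The 672 had 621 different nearest genes, 43 genes were nearest to 2 or more, and 13 genes held 2 or more inside. Pcsk5, a proprotein convertase gene, was nearest to 4, of which 1 lay inside it (folds of 5.94 and 10.4) and 3 at 111412, 140341 and 299066 bp upstream. Auts2, Cadm1 (a cell adhesion gene), Col26a1 (a collagen gene), Trib2 (a pseudokinase gene), Zfp536 and Zfp64 were each nearest to 3. Col26a1 had regions at a gene end (8.42 and 8.36) and at separate internal sites (13.2 and 7.37, 11.0 and 9.34). Regions seldom lay side by side, since 6 neighbouring pairs were under 10 kb apart and 21 under 50 kb. The counts of nearest genes and of neighbours are not given here for other sets. They describe the 672 regions alone and set them apart from no other regions.

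Genes of the canonical XBP-1 programme were the nearest genes of few regions, at a share below the background that was not tested. Of 118 genes in 5 lists of ER folding, translocon and ER targeting, ER-associated degradation (ERAD), ER-Golgi transport and unfolded protein response sensors, 2 were the nearest gene of a Fasted-only region (0.298% of the 672), against 616 of all merged regions (0.549%) and 14 of the Fed-only regions. Both were on the ERAD list. Edem1, which sorts misfolded glycoproteins for degradation, had a region 290929 bp downstream (folds of 6.18 and 5.29), and Hspa13 had one 72290 bp away (5.26 and 8.36). Within 50 kb of a gene, the ER folding list had 0 regions (0.314% of all merged regions), the translocon and ER targeting list 2 (0.298%, against 0.210%) and the ERAD list 1 (0.149%, against 0.263%). The lists of ER-Golgi transport and of unfolded protein response sensors also had 0, against 0.423% and 0.413% of all merged regions. Each share stands for a handful of regions, and the differences were not tested.

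Lists of the fasting response held few nearest genes or none. The lists of gluconeogenesis, glucocorticoid response, cholesterol synthesis and uptake, the circadian clock, and autophagy and lysosome held the nearest gene of 0 regions, at background shares of 0.232%, 0.192%, 0.127%, 0.184% and 0.124%. The list of fatty acid oxidation and ketogenesis held 1 (0.149%, background 0.146%), Cpt1a, the enzyme that admits long-chain fatty acids to mitochondria. Its region (chromosome 19, 3318112 to 3318759) lay 3891 bp upstream of the gene with folds of 7.30 and 6.33, a pooled Fed fold of 3.66 and an Ern1-LKO replicate 2 fold of 6.05. Insr, the insulin receptor gene, was the 1 gene of the FOXO and insulin list (background 0.3002%), with a region 11008 bp away (4.86 and 5.41). Insig2, a restrainer of sterol regulatory processing, was the 1 gene of the lipogenesis list (background 0.279%), and its region is the one printed above at Gm46155, 156520 bp from Insig2. None of these counts stands far from its background.

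Lists of nuclear receptors and chromatin regulators also held few nearest genes, and the gaps to their background shares were not tested. The nuclear receptor list held Esrrg and Nr4a2 (2 regions, 0.298%, background 0.587%) and the chromatin list Chd9, Jarid2 and Kat6b (3, 0.446%, background 0.589%). Within 50 kb of a gene these lists had 3 and 2 regions (0.446% and 0.298%, against 0.849% and 0.870% of all merged regions). Chd9, a chromatin remodeller, had a region 3381 bp downstream with folds of 7.89 and 10.8, and Kat6b, a histone acetyltransferase, had an internal one with 5.66 and 5.63. Fos, a bZIP gene, had a region 50157 bp downstream with 5.52 and 4.40. Lists of cell type markers held Apob for hepatocytes (1 region, 0.149%, background 0.106%, 1049311 bp away), Flt1, Pecam1 and Stab2 for endothelium (3, 0.446%, background 0.158%), Hand2 for stellate cells (1, 0.149%, background 0.102%) and Cd3e for lymphocytes (1, 0.149%, background 0.0249%). The Kupffer cell and cholangiocyte lists held 0 (background 0.0410% and 0.0918%). The regions lay 11920 bp from Pecam1 and 120289 and 54899 bp upstream of Stab2 and Hand2. Within 50 kb of a gene the endothelial list had 2 regions (0.298%, against 0.229% of all merged regions) and the stellate list 0 (against 0.146%). The lymphocyte, Kupffer cell and hepatocyte lists had 1 each (0.149%, against 0.142%, 0.120% and 0.236%), and the cholangiocyte list 0 (against 0.117%). Peaks near a marker gene do not measure its expression, and the part of cell composition was not tested.

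The WT and Ern1-LKO lists were not used in choosing the regions, and they show how many recurred in livers of the other experiment. The list of WT replicate 1 overlapped 0 of the 672 regions (2.71% of all merged regions), and that of WT replicate 2 overlapped 88 (13.1%, 95% exact interval 10.6 to 15.9%, against 22.8% of all merged regions). In Ern1-LKO, the list of replicate 1 overlapped 0 (0.584%) and that of replicate 2 overlapped 167 (24.9%, 21.6 to 28.3%, against 21.7%). A count of 0 of 672 allows a share of up to 0.446% by the limit of 3 counts, and the exact interval reaches 0.547%. The mean over libraries was 44.0 ± 62.2 in WT and 83.5 ± 118 in Ern1-LKO (SD, n = 2 each). The difference of -39.5 regions was smaller than the spread between libraries (exact two-sided permutation p = 1, smallest possible 0.33). Leaving out 1 library turned it, to 4.5 without WT replicate 1 and to 44.0 without Ern1-LKO replicate 2, so no order of the genotypes was shown. Replicate 2 of each genotype supplied every overlap, and replicate 1 lists were the shorter ones, with 6258 and 698 peaks.

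How these shares compare with the background depended on location. Over all locations the share was below the background in the longer WT list and near it in the longer Ern1-LKO list. The regions in both Fasted and 1 Fed list had the same order, at 23.9% and 34.8%, and the Fed-only regions the opposite one, at 21.1% and 16.04%. Among regions away from gene ends and start sites the Fasted-only shares were 12.8% and 24.96%, and the Fed-only shares 18.1% and 15.4%. Those of all merged regions were 14.3% and 14.4%, so that there the WT share was near the background and the Ern1-LKO share above it. Both Fasted-only shares were below those of the other regions in both Fasted lists (39.2% and 48.2% there, 61.0% and 66.7% over all locations). They were also below those of the regions with 1 Fed peak (23.4% and 34.4% there). With 1 library on each side these shares compare the libraries and not the genotypes. Ern1-LKO replicate 2 had the fewest kept tags (4.34M) and the highest share of redundant tags (47%), and the part of either was not tested. Folds at the recurring regions were of like size, with medians of 6.64 in WT replicate 2 (4.12 to 12.4) and 5.90 in Ern1-LKO replicate 2 (1.74 to 15.1). The value of 1.74 was that of the single region on the mitochondrial genome.

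**Figure D4:**
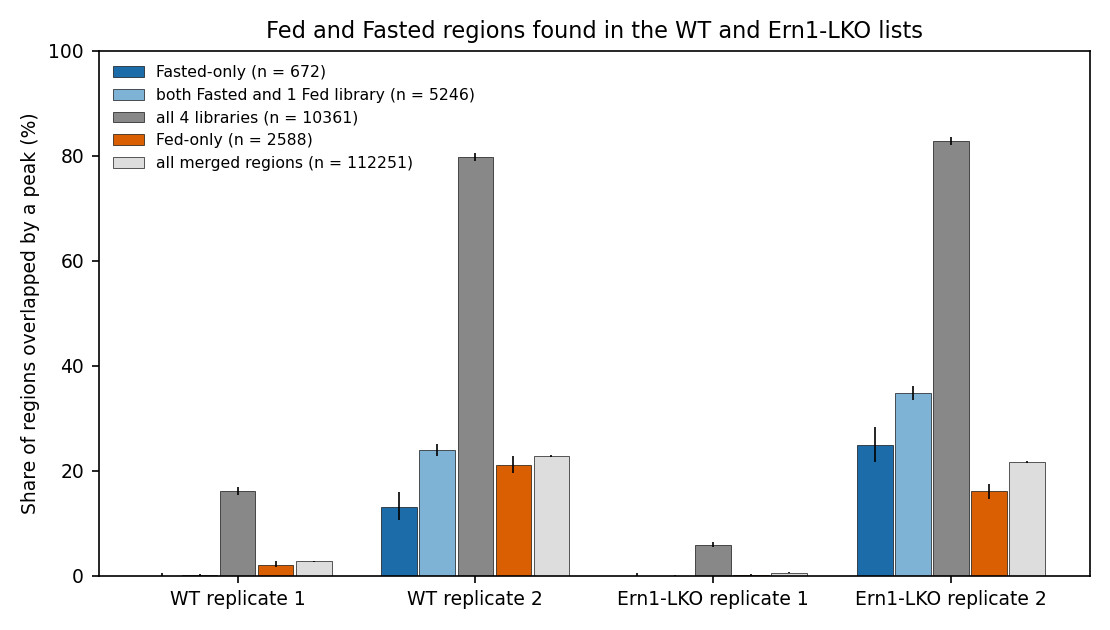
Share of regions (%) overlapped by a peak of each WT and Ern1-LKO list, for 5 sets of merged regions, with bars for the share and lines for the 95% exact binomial interval. The Fasted-only regions (dark blue) are at 13.1% in WT replicate 2, 24.9% in Ern1-LKO replicate 2 and 0 in the replicate 1 lists.

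Recurrence was highest among the regions with the highest ranks in the Fasted lists, and other regions were not split in this way. With the regions split by mean Fasted percentile into lower, middle and upper groups of 225, 223 and 224, the WT replicate 2 list overlapped 9.78%, 9.87% and 19.6% and the Ern1-LKO replicate 2 list 17.8%, 26.9% and 29.9%. The pooled Fed list overlapped 23.1%, 34.5% and 47.3% of the same groups. Of the 437 regions without a pooled Fed peak, 41 (9.38%) recurred in WT replicate 2, against 22.8% of all merged regions. The Ern1-LKO replicate 2 list had 83 of them (19.0%, against 21.7%). In the authors' pooled lists 8 of the 672 regions (1.19%) recurred in WT and 27 (4.02%) in Ern1-LKO, against 10.2% and 11.1% of all merged regions. The regions in both Fasted and 1 Fed list had 1.47% and 6.96% in these pooled lists.

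By library, 42 regions (6.25%) recurred in both replicate 2 lists, against 16.3% of all merged regions. A further 46 (6.85%, against 6.49%) were in the WT replicate 2 list alone and 125 (18.6%, against 5.39%) in that of Ern1-LKO alone. These shares were 11.7% and 22.6% for the regions in both Fasted and 1 Fed list. They were 7.37% and 13.1% for all other regions in both Fasted lists, so a higher Ern1-LKO share was not particular to the Fasted-only regions. The other 459 (68.3%) Fasted-only regions were in none of the 4 lists, and 71.8% of all merged regions were in neither replicate 2 list. Ppp4r4 had the highest WT replicate 2 fold, 12.4, and an Ern1-LKO replicate 2 fold of 12.1, both above its Fasted folds of 7.37 and 4.88. The region 2723 bp from Mfng, a glycosyltransferase gene of Notch signalling, had 11.6 and 11.9 there against 5.88 and 5.88 in the Fasted lists. The region 18964 bp upstream of Camsap2, a microtubule-binding protein gene, had 11.5 and 9.70 there and 11.6 and 9.83 in the Fasted lists. Gm36008, printed above, had 8.64 and 7.61 there and 5.39 and 5.01 in the Fasted lists, and a pooled Fed fold of 4.36. These regions, although absent from both Fed lists, had folds near or above their Fasted folds in livers of the other experiment, which were taken against another input library. Mfng here, and Tgfbr3, Epm2a, Elovl3, Rnf128 and Rragb further on, were picked after their values were seen.

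Recurring regions also differed between the replicate 2 lists. The region 18220 bp from Tgfbr3, a co-receptor gene for transforming growth factor beta, had the highest Ern1-LKO replicate 2 fold, 15.1, no WT replicate 2 peak and Fasted folds of 7.26 and 5.44. Zswim6, with Fasted folds of 11.2 and 13.5, had a WT replicate 2 fold of 10.04 and no Ern1-LKO peak. The region 32499 bp downstream of Epm2a, which encodes the glycogen phosphatase laforin, had 8.25 in the list of WT replicate 2, 13.98 in that of Ern1-LKO replicate 2, and Fasted folds of 7.94 and 7.74. The region 8724 bp from Elovl3, a fatty acid elongase gene, had 5.70 and 11.7 there, against 5.16 and 7.22 in the Fasted lists. Cgnl1, Gfod1, Cdk5rap2, Clec4a2, Lrmda, Zfp64, Flt1, Ppp4r2, Tnfsf8 and Esrrg were the genes nearest to the 10 strongest regions that recurred in no list.

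Chromosome X carried more of the Fasted-only regions than of other regions. It held 42 of the 672 (6.25%, 95% exact interval 4.54 to 8.35%), against 1.10% of all merged regions, 1.24% of the other regions in both Fasted lists and 0.8501% of the Fed-only regions. Of the 235 chromosome X regions in both Fasted lists 42 were Fasted-only (17.9%), against 630 of 16044 elsewhere (3.93%). Peaks on chromosome X made up 0.856% and 1.49% of the Fed lists and 1.52% and 1.67% of the Fasted lists. The longest of these lists had the lowest share. In the other experiment the shortest list, Ern1-LKO replicate 1 with 698 peaks, had 0.716%, so the share did not simply follow list length. The regions were of modest height, with median folds of 6.31 and 6.39, and 23 lay inside genes. Rnf128, a ubiquitin ligase gene, held the highest ranked one (7.37 and 10.8), followed by Rragb, a GTPase gene of amino acid sensing (6.84 and 9.34). Of the 42, 0 recurred in the list of WT replicate 2 and 6 (14.3%) in that of Ern1-LKO replicate 2. The pooled Fed list had 8 (19.05%). Among all merged regions on chromosome X the shares were higher, at 32.04%, 31.5% and 63.99% in the same order. These differences were not tested. A count of 0 of 42 allows a share of up to 7.14% by the limit of 3 counts, and the exact interval reaches 8.41%.

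The share on chromosome X varied with the peaks admitted. It was 5.42% with peaks of a fold of at least 5, 4.86% with those of −log10 q of at least 5, 0.426% at 10 or more, 0.936% with equal numbers of top peaks from each list and 3.19% with the pooled lists, against 1.05 to 1.55% of all regions over these settings and those that leave out 1 library. It was 2.03% without Fed replicate 2 and 1.93% without Fasted replicate 2. The labels give no sex, 11 and 17 peaks of the Fed lists and 18 and 12 of the Fasted lists lay on chromosome Y, and the part of sex in the result was not tested. Elsewhere chromosome 9 held 8.48% (5.55% of all merged regions) and chromosome 11 3.57% (8.24%). A single region lay on the mitochondrial genome (15895 to 16299), with the lowest folds of all, 2.32 and 2.12. It counted among the 23 regions at gene ends and had no pooled Fasted peak.

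**Figure D5:**
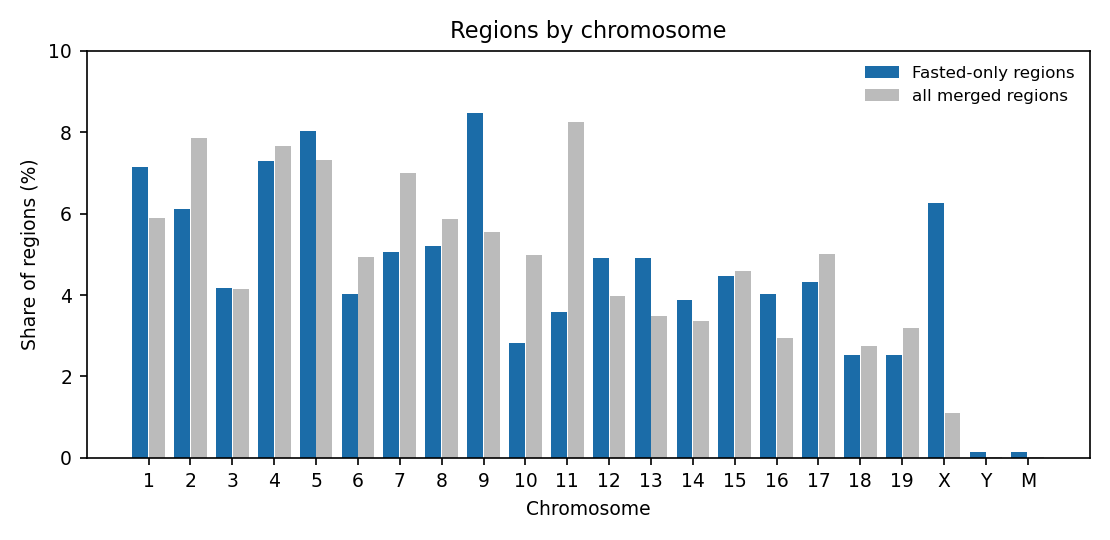
Share of regions (%) on each chromosome, for the 672 Fasted-only regions (blue) and all 112251 merged regions (grey). Chromosome X holds 6.25% of the Fasted-only regions and 1.10% of all regions, and chromosome 11 holds 3.57% and 8.24%.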

How the data were processed

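XBP-1 occupancy was deposited as 12 peak lists, of which 8 come from single libraries and 4 from the pooled libraries of a group. Per the submitters' processing notes, MACS2 2.2.1 and Bowtie2 2.2.5 were run on mm10, with FastQC 0.11.3 and bcl2fastq, whereas the file headers name MACS 2.1.1.20160309, a q cutoff of 0.05 and 1 kept tag per position. Per the file headers, each peak has a length, a pileup signal, a fold enrichment (the ratio to local background), and −log10 p-values and −log10 q-values. They are the authors' own values and served to rank, filter and describe peaks within a list. Fed and Fasted were called with 1 input library and the knockout experiment with the other, so experiment and input library cannot be told apart.

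Peaks were merged by 1 bp overlap with Python 3.11.15, numpy 2.4.6 and pandas 2.3.3, and the merging was tested on simulated data. Region midpoints were placed against 21896 protein-coding genes of RefSeq GRCm38.p6, whose table gives gene ends without strand, and against start sites from the RefSeq promoter table, which listed 17491 of these genes. Start sites on chromosome 18 and the mitochondrial genome were not used here. Nearest genes pass over names of the Gm, Rik or LOC form. Intervals are 95% Clopper-Pearson intervals (scipy 1.17.1) and cover counting error only. No genome sequence was used.

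The regions and the 22 gene lists (469 genes matched of 488 listed) were chosen with earlier results of these data known. The full result of 1 of these lists is not reported here. Genes were named if nearest to the 25 regions of highest mean rank, to the 10 strongest absent from all WT and Ern1-LKO lists, to 2 or more regions or to a region in a list, or if their start site lay within 1 kb. No region met the condition of a peak in 3 or 4 of the WT and Ern1-LKO lists, and regions in both replicate 2 lists were used instead. Alternatives were stricter limits on q and fold, a 50% overlap, equal numbers of top peaks, pooled lists, a 5 kb window, peak summits, a replicate block and leaving out each library.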

Additional observations from a re-analysis of the deposited data

How the results depend on the processing

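The 672 Fasted-only regions became 671 with a 50% overlap and 997 at a fold of at least 5, but 1110 and 1876 at −log10 q of at least 5 and 10, 1817 with 19237 top peaks from each list and 6088 with the pooled lists. Of the 672, 142 were still overlapped by a Fasted-only region at −log10 q of at least 10 and 156 with equal top peaks. The rule is looser with a library left out, and the number ran from 943 (without Fed replicate 1) to 12089 (without Fasted replicate 2), with 5661 without Fed replicate 2 and 1782 without Fasted replicate 1. Shares at gene ends, inside and between genes were 5.86%, 45.9% and 48.2% at −log10 q of at least 10, 9.08%, 46.9% and 44.0% with equal top peaks, 5.09%, 45.6% and 48.9% with the pooled lists and 17.3%, 34.5% and 48.2% with a 5 kb window, and 5.82% lay at gene ends at a fold of at least 5. Over leaving out each library they ran from 3.31% to 8.74%, 42.8% to 49.8% and 41.2% to 52.7%. The share on chromosome X, whose alternatives and those of the secretory lists were added after seeing the data, was 5.42% at a fold of at least 5, 0.426% at −log10 q of at least 10, 0.936% with equal top peaks and 3.19% with the pooled lists, and ran from 1.93% to 4.77% over leaving out each library. The secretory and unfolded protein response lists held the nearest gene of 0.267% to 0.541% of the regions in all settings run. The WT minus Ern1-LKO difference of -39.5 was 0 with 698 top peaks from each list, since 0 regions then had a peak in any, and ran from -123 to 44.0 over leaving out each library, with 4.5 without WT replicate 1. The replicate block gave the same difference of -39.5 (exact permutation p = 1, smallest possible 0.5); same-numbered libraries deviated together only weakly (correlation 0.112 over 43592 regions), and with 2 pairs the samples share only a number. The causes were not tested. Peak lists hold no signal for regions that were not called, so a region absent from a list may lie just under its cutoff.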
